A study of Mus musculus with 21 samples.

Results

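Open chromatin was compared between PDGFRα+FLK1+ cells with and without induced Sox7, in 4 ATAC-seq libraries of the 21 samples of the series. Uninduced CPC had 2 libraries and no doxycycline, and induced CPC had 2 libraries and 24 h of doxycycline at 1 µg/ml. CPC stands for the cardiac progenitors of the series' design text. All cells came from A2lox-Sox7-Myc, a mouse embryonic stem line made from E14Tg2a, so the uninduced controls carry the same doxycycline-inducible, Myc-tagged Sox7 transgene. They were differentiated as embryoid bodies and collected on day 4. A group without the transgene but with doxycycline was not analysed here, so an action of doxycycline itself and of Sox7 cannot be told apart. Peaks of the 4 lists that overlapped by 1 bp or more were merged into 39653 regions. A region was called gained where both induced libraries had a peak and no uninduced library did, and lost in the reverse case, which gave 2980 gained (7.52%) and 1213 lost regions (3.06%), 4193 in all. A further 16464 regions had a peak in all 4 libraries and are called constant, and 18996 had another pattern. Readouts that did not enter these calls were 8 anti-Myc ChIP-seq lists and 1 input list from unsorted day 4 cells, and 4 ATAC lists from PDGFRα-FLK1+ cells, the endothelial progenitors (EPC) of the design text, with 2 uninduced and 2 induced libraries under the same treatment.

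Sox7 belongs to the SOXF group of HMG-box transcription factors, which bind short AT-rich DNA elements in the minor groove and act in endothelial and endodermal development. FLK1, encoded by Kdr, is a receptor for VEGF, and PDGFRα is a receptor for platelet-derived growth factors. In early mesoderm, cells that carry both receptors on their surface can form heart muscle, whereas cells with FLK1 alone are richer in endothelial and blood precursors. In ATAC-seq a transposase inserts sequencing adapters into DNA that is not covered by nucleosomes, so peaks mark accessible promoters and enhancers.

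Only a small share of the gained and lost regions touched a gene's start, and the sequences upstream of 4 gained starts and 1 lost start are shown because these are the regions whose DNA can be read here. Each run is the 250 bases before a RefSeq start on GRCm38.p6, written along the gene's strand, and capitals mark ACAAT or ACAAAG on either strand, the short elements that SOX factors recognise. Tmem86b, which encodes a lysoplasmalogenase, lay at the start-site region with the highest scores and had 3 matches, at bases -150, -62 and -33 before the start (chr7:4630483-4630732, minus strand). Mybphl, a myosin-binding protein gene of heart muscle, had 0 matches (chr3:108364661-108364910, plus strand). Evx1, a homeobox gene of the primitive streak, had 1 match at base -231 (chr6:52313248-52313497, plus strand). The gained region there, chr6:52313338-52314087, covers only part of this window and does not reach the match. Grem1, a secreted BMP antagonist, had 1 match at base -188 (chr2:113758649-113758898, minus strand). Lats2, a Hippo pathway kinase whose start region was lost, had 0 matches (chr14:57746124-57746373, minus strand).
Tmem86b: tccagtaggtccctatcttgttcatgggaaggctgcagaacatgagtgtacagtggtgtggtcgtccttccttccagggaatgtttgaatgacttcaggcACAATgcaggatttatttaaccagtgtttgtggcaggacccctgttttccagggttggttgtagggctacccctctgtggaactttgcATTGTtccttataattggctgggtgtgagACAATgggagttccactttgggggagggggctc
Mybphl: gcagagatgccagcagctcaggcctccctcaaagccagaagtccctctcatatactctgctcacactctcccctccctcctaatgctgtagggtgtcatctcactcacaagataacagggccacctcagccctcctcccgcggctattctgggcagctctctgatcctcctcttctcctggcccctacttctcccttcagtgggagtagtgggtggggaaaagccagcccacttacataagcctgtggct
Evx1: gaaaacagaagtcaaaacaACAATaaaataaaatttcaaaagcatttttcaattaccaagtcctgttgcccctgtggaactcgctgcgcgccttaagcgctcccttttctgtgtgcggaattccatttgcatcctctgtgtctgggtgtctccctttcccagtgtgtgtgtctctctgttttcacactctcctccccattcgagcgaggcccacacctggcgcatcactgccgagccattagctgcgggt
Grem1: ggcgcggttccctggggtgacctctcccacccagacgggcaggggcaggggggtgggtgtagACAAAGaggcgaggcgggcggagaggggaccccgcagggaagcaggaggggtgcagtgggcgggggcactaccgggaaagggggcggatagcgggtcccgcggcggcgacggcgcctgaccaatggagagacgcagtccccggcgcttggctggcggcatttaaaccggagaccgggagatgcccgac
Lats2: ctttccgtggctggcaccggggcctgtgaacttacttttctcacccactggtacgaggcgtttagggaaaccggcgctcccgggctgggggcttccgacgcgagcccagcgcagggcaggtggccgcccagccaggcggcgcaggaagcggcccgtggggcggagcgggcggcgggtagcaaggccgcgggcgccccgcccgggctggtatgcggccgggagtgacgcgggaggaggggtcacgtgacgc

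These 5 windows differ in composition. The Grem1 and Lats2 windows held 24 and 31 CG pairs with 72% and 74% G or C, while those of Tmem86b and Mybphl held 1 and 2 CG pairs. Over the 169 upstream windows at gained regions, ACAAT was present in 20.7%, against 16.2% of 68 windows at lost regions, 16% of 9528 at constant regions and 25.1% of all 21238 windows. The share at gained starts lay between those of constant starts and of all windows, and carries no test. ACAAAG was present in 17.8% of gained, 11.8% of lost, 10.3% of constant and 14.9% of all windows. The longer form AACAAT, every match of which also counts as ACAAT, was present in 8.88%, 8.82%, 4.31% and 8.22% in the same order. The GATA element AGATAA stood in 8.28%, 7.35%, 4.54% and 8.81%, the ETS element CCGGAAG in 8.28%, 4.41%, 15.1% and 8.99%, and the TEAD element GGAATG in 9.47%, 7.35%, 9.45% and 11.7%. All 5 elements and the longer form were searched on both strands. At gained starts each share lay within 5 percentage points of that of all windows. The median G or C content was 59.6% at gained, 57.4% at lost, 61.6% at constant and 55.6% at all starts. A match describes letters only.

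The libraries held 27540 and 23068 peaks in uninduced CPC (replicates 1 and 2) and 29291 and 27979 in induced CPC. Uninduced library 2 was the shortest and covered 21.5 Mb, against 28 to 29.3 Mb in the other 3. The means were 28635 ± 928 induced and 25304 ± 3162 uninduced peaks (SD, n = 2 each), a difference of 3331 (two-sided exact permutation p = 0.333, the smallest that 2 against 2 libraries allow). No comparison of these 2 groups can therefore pass 0.05, and read depth is unknown because the lists hold no counts. Each peak's score is the authors' own value (in MACS 1.4 output, the log10 of the p-value multiplied by -10), and the lowest score was 50 in each list. Of the peaks of induced library 1, 78.7% overlapped a peak of induced library 2, and of uninduced library 1, 71.4% overlapped a peak of uninduced library 2. The labels do not state whether replicates were separate cultures, and p-values cover the spread among these libraries alone, part or all of which may be technical. The protocol text names a sort of PDGFRα+FLK1- cells, which differs from the PDGFRα+FLK1+ entry of each CPC sample, and the sample entries were followed.

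The genes of the sorting markers were checked first. Kdr had a peak at its start in all 4 CPC libraries, with scores of 55.4 and 88.7 in uninduced and 207 and 97.4 in induced libraries, and also in all 4 EPC libraries. Pdgfra had no peak at its start window (chr5:75152001-75152300) in any of the 8 ATAC libraries. A constant region lay inside the Pdgfra gene, at chr5:75154524-75157199, with scores of 463 and 63.2 uninduced and 367 and 272 induced. That region also had peaks in all 4 EPC libraries, which were sorted as lacking PDGFRα. A second constant region, 0.675 kb from the gene (chr5:75149638-75150647), had scores of 55.6, 106, 59.8 and 161 in CPC and a peak in 1 EPC library, an induced one. At the Kdr start and inside Pdgfra, peaks were thus present in both sorted populations.

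Gained regions outnumbered lost regions, at 7.52% against 3.06% of the 39653 CPC regions, a ratio of 2.46. In a sorted population, a missing peak can mean fewer cells with the site open or less opening per cell, which cannot be told apart, and it can also reflect a shorter list. With each list reduced to its 23068 highest-scoring peaks, the length of the shortest, 1939 regions were gained and 1550 lost, a ratio of 1.25 (5.92% and 4.73% of 32740 regions). Of these, 1603 gained and 872 lost regions were also called in the full lists. Without uninduced library 2 there were 3749 gained and 4624 lost regions, and gained outnumbered lost without each of the other 3 libraries. Leaving out a library changes how many peaks one call needs and not the other, so these counts cannot check the balance.

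The ratio of gained to lost regions was higher at higher peak scores, although most regions of both kinds, 2243 gained and 1072 lost, had a lower score below 100. The lower of the 2 scores had a median of 70.8 at gained regions (quartiles 57.9 and 99.5) and 63 at lost regions (55.4 and 78.2), whereas the lowest of the 4 scores at constant regions had a median of 157. At a lower score of 100 or more there were 737 gained and 141 lost regions, at 150 or more 287 and 32, at 200 or more 145 and 10, and at 300 or more 33 and 1. The corresponding ratios were 5.23, 8.97, 14.5 and 33. One score limit does not fall equally on the libraries. The median peak score was 126 in uninduced library 2, against 153 in uninduced library 1 and 142 and 138 in induced libraries 1 and 2. The lower score of a lost region cannot exceed its score in uninduced library 2. With only peaks of 100 or more kept in every list, 1737 regions were gained and 600 lost. Near the threshold, 889 gained regions (29.8%) and 502 lost regions (41.4%) had a lower score below 60. Just outside it were 6568 regions with a peak in 1 induced library alone, with a median score of 62.5, and 4847 with a peak in 1 uninduced library alone, with a median of 62.7.

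**Figure D1:**
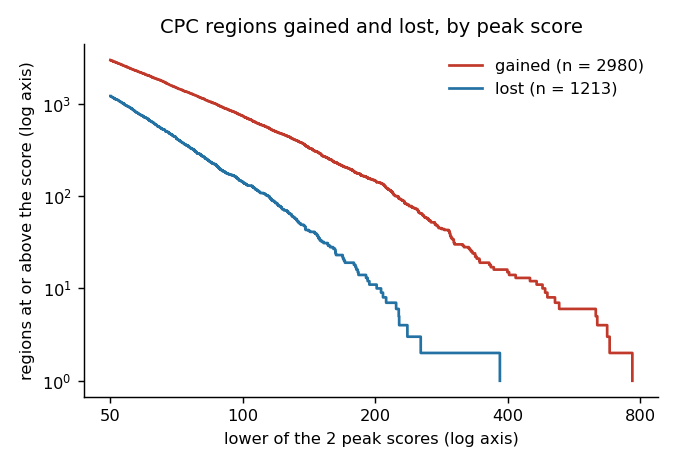
Number of gained (2980) and lost (1213) CPC regions at or above each value of the lower of the 2 peak scores, both axes logarithmic. The lines separate as the score rises, from 737 against 141 regions at 100 to 145 against 10 at 200.

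The plot of region counts by score shows the same values over the whole range, up to 767 for the highest gained and 384 for the highest lost region.

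The gained regions with the highest scores lay near a mixed group of genes. Scores are given for induced libraries 1 and 2, and the uninduced libraries had no peak at any of them. The highest was 12.6 kb from Zscan4c (892 and 767), and another stood 12.7 kb from Zscan4f (939 and 633). Both are zinc finger genes of the early cleavage embryo and lie in a cluster of near-identical copies, where reads may be shared between copies, so these 2 positions are uncertain. Vangl2, a core gene of planar cell polarity, held a region inside the gene at chr1:172024019-172024939 (672 and 700). Ccne1, which encodes cyclin E1, had one 4.04 kb away at chr7:38092820-38093943 (699 and 681). The Vangl2 and Ccne1 regions had peaks in all 4 EPC libraries, and those near Zscan4c and Zscan4f in the 2 induced EPC libraries alone. Further leading regions lay 11.5 kb from the neuropeptide receptor gene Npffr2 (638 and 913), 21.6 kb from the single-stranded DNA-binding protein gene Ssbp2 (576 and 512), inside the receptor phosphatase gene Ptprh (486 and 498), inside Tafa2 (604 and 479) and inside AA986860 (557 and 523). Induced ChIP lists had a peak at 7 of these 10 leading regions, in 3 of 4 lists at Ssbp2 and Ptprh, and uninduced ChIP lists at none of them.

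The leading lost regions had lower scores and fewer named genes. The highest, at chr8:103408793-103409877 with 584 and 384 in uninduced libraries 1 and 2, had no protein-coding gene within 50 kb, and neither did 4 others of the 10. Others lay inside Septin11, a cytoskeletal GTPase gene (572 and 254), Nme9 (381 and 226), Ppfibp2 (212 and 226) and Medag (466 and 201). No ChIP list had a peak at any of these 10 regions, and 9 of them had no peak in any EPC library. Ppfibp2 was the exception, with peaks in both uninduced EPC libraries and 1 induced one.

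Gained and lost regions were alike in genomic position and differed from constant regions, which were not matched to them for score. Among gained regions 151 (5.07%, 95% exact binomial interval 4.31 to 5.92) touched a start window, from 250 bases before to 50 after a RefSeq start, and among lost regions 58 (4.78%, 3.65 to 6.14). Among constant regions the share was 46.1% (45.3 to 46.8). It rose with their lowest score, from 22.1% at 50 to 60 to 61.6% at 200 or more. Of all CPC regions, 24.1% overlapped a start itself, against 4.9% of gained, 4.45% of lost and 45.8% of constant regions. When regions were called from peaks with scores of 100 or more in every list, 10.5% of the gained regions touched a start window. That call ignores uninduced peaks with scores below 100, so it takes in regions that are not gained in the full lists. Among regions gained in the full lists, the share was 3.78% at lower scores of 100 to 150, 1.41% at 150 to 200 and 2.76% at 200 or more. The median distance to the nearest start was 44.9 kb for gained, 48.6 kb for lost and 0.797 kb for constant regions. Inside genes lay 48.4% of gained, 49.3% of lost and 76% of constant regions, and 23.2%, 23.3% and 8.76% had no protein-coding gene within 50 kb. The intervals cover counting error only and regions are not replicates.

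**Figure D2:**
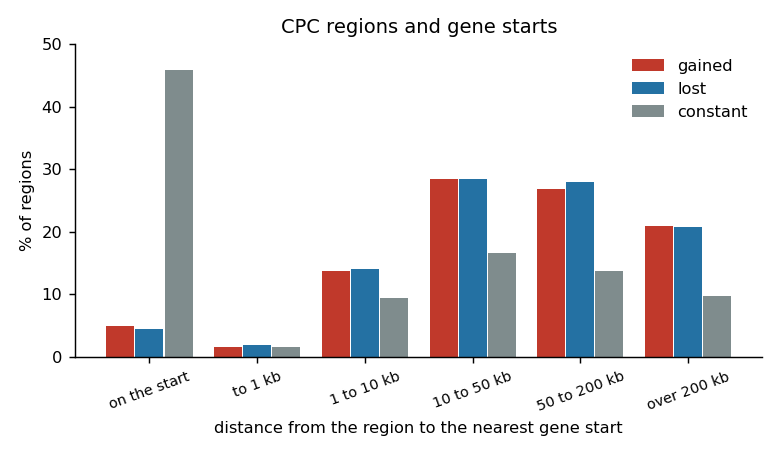
Share of gained, lost and constant CPC regions (percent, vertical axis) in 6 classes of distance to the nearest RefSeq start. Gained and lost bars are of similar height in each class (28.5% and 28.4% at 10 to 50 kb), while 45.8% of constant regions overlap a start itself.

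In the plot of distances, 28.5% of gained regions lay 10 to 50 kb from a start and 20.9% beyond 200 kb. The shares were 16.6% and 9.8% of constant regions, and 23.5% and 14.3% of all CPC regions. Gained regions took between 4.76% (Y, of 42 regions) and 8.87% (18) of the CPC regions of a chromosome, and lost regions between 0% (Y) and 4.07% (10). Clustering was rare, since 80 gained regions (2.68%) lay within 10 kb of the one before.

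At gene starts, the gained region with the highest lower score was that of Tmem86b, whose window is shown above (363 and 456 in induced libraries 1 and 2). Next came Bcar3, an adaptor of integrin signalling (303 and 211), Rgs3, a regulator of G-protein signalling (256 and 210), and Mybphl (201 and 246). The other 6 of the leading 10 were Prr36, Fam110a, the cholesterol transporter Gramd1a, the amino acid transporter Slc7a7, Rsrp1 and the cGMP-dependent kinase Prkg1, with lower scores of 138 to 155. All 10 stayed gained with lists of equal length. Only the Tmem86b region among them had an induced ChIP peak, in 1 list. The 10 leading lost starts had lower scores than these, from 115 and 121 at Ctla2a, a protease inhibitor gene, to 76.6 and 71.5 at 2310011J03Rik. They included the transmembrane gene Cachd1 (100 and 91 in uninduced libraries 1 and 2) and the shared region of Pir and Vegfd, a lymphatic growth factor gene (144 and 88.6).

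Among genes of the heart, some cardiac regulators had gained regions. A region was assigned to each protein-coding gene it overlapped, or otherwise to the nearest within 50 kb, and 12.4% of the 15967 genes with a CPC region had a gained region and 5.52% a lost one. Of 20 cardiac transcription factors 5 (25%) had a gained region, with a median of 3.5 CPC regions per gene against 2 for all genes. Isl1, a LIM-homeobox factor of the second heart field, had regions inside the gene (162 and 120) and 38 kb away at chr13:116259263-116260283 (175 and 231). Mesp1, which marks the earliest heart-forming mesoderm, had regions at 2.04 kb (118 and 195) and 4.77 kb (170 and 100). Tbx20, a T-box factor of heart and endocardium, had regions at 13.2 kb (134 and 103) and 2.04 kb (60.6 and 87.2). Hand2 had 1 region and Wt1 2. Lost regions were assigned to Gata4, 11.8 kb away (59.8 and 53.5 in uninduced libraries), and to Smarcd3, a chromatin remodelling subunit of heart development, at 2 positions inside the gene (173 and 70.5, and 99.7 and 64.1). Heart muscle genes had gained regions at 4 of 14 (28.6%) and lost regions at 0. They were Tnni1, the slow skeletal troponin I expressed in embryonic heart (259 and 220), the cardiac actin gene Actc1 (186 and 126), Ryr2 (80.1 and 54.6) and Ttn (52 and 72.5), the last pair not gained with lists of equal length.

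Endothelial genes had gained regions at 8 of 27 (29.6%) and a lost region at 1 (3.7%), with a median of 3 CPC regions per gene. Tek, the angiopoietin receptor TIE2, had a region inside the gene at chr4:94745613-94746964 (222 and 212) with peaks in all 4 EPC libraries, and one 12.7 kb away near the score limit (51.6 and 58.3). Flt1, a VEGF receptor, had 3 regions inside the gene, the highest at 167 and 153 with peaks in both induced and no uninduced EPC library and in 1 induced ChIP list. Cdh5, encoding VE-cadherin, had one 4.16 kb away (140 and 138) and one inside the gene (62.6 and 59.9). Ets1, an ETS factor of endothelium, had a region at chr9:32715785-32716710 (234 and 127) overlapped by peaks of 3 of 4 induced ChIP lists, and a second inside the gene (202 and 64.9). The neuropilin gene Nrp2 (186 and 196 at 23.9 kb) and the sphingosine phosphate receptor gene S1pr1 had 2 regions each, Sox17 and Erg 1 each. With lists of equal length the Erg region was not gained, and neither was the lowest-scoring gained region of Tek, Flt1, Cdh5, Ets1 or S1pr1. S1pr1 also had the single lost region of the list, 48.1 kb away with 68.1 and 50.9 in uninduced libraries. The list of VEGF signalling and axon guidance genes, which shares Flt1 and Nrp2, had gained regions at 7 of 22 (31.8%) and lost regions at 0, with a median of 5 CPC regions per gene. Sema3a, a secreted repellent that binds neuropilins, had 3 regions (161 and 241 at the highest), the SLIT receptor gene Robo1 4 (184 and 129 at the highest), the ligand genes Slit2 and Efnb2 2 each and Slit3 1.

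SOX genes had gained regions at 5 of 18 (27.8%) and lost regions at 0. Sox5, a SOXD factor, had 4 gained regions of 15 CPC regions, all inside the gene, the highest at chr6:144453200-144455085 (350 and 340) with peaks in both induced and no uninduced EPC library and in 3 induced ChIP lists. Its relative Sox13 had 4 of 7, 1 of them inside the gene at chr1:133397477-133398501 (129 and 138) with a peak in all 4 induced ChIP lists. All 8 regions of Sox5 and Sox13 stayed gained with lists of equal length. Sox4 had a region 6.14 kb away (148 and 120) and Sox17, a SOXF factor like Sox7, one 33.3 kb away (123 and 87.1). At Sox7 itself, a region inside the gene (chr14:63947666-63948615) had scores of 81.9 and 61.6 in induced and no peak in uninduced libraries, and was not gained with lists of equal length. The region also had peaks in the 2 induced and no uninduced EPC library, and DNA of the gene and of the transgene cannot be told apart there. A second Sox7 region, at the gene's lower boundary (chr14:63943217-63944410), had no peak in uninduced library 1 and scores of 69.1, 93.3 and 94.3 in the other 3.

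Endoderm genes had the highest share among the 16 lists, 9 of 22 (40.9%) with a gained region and 1 (4.55%) with a lost one, and also more CPC regions per gene (median 4) than all genes. Foxa2, a forkhead factor of endoderm, had regions 1.42 kb (266 and 225) and 5.46 kb (60 and 77.5) from the gene, both with peaks in the 2 induced and no uninduced EPC library. The laminin gene Lamc1 (246 and 131) and Prdm1 (122 and 62.1) each had a region with peaks of 2 induced ChIP lists, and the endocytic adaptor gene Dab2 one 39.1 kb away (210 and 185). Cubn, Cxcr4, Sox17 and Ttr were among the others. The gained regions of Prdm1, Cxcr4 and Ttr, and the Foxa2 region 5.46 kb away, were not gained with lists of equal length. The lost region was that of Gata4, named above, which is also an endoderm gene.

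Peaks at gene starts per library were counted for markers of other cell types. Of 17 endothelial starts, 10 and 8 had a peak in uninduced and 10 and 10 in induced CPC libraries, against 10 to 13 in the EPC libraries. Of 16 blood starts the counts were 7 and 7 uninduced and 6 and 5 induced, and of 18 endoderm starts 11 and 4 uninduced and 11 and 9 induced. Uninduced library 2, the shortest list, had the lowest count for endoderm. Pluripotency (6 and 5, then 7 and 6 of 13), neural (5 and 5, then 6 and 8 of 11) and smooth muscle starts (5 and 2, then 4 and 3 of 7) moved by at most 3 between the lowest and highest library. Whether the make-up of the sorted cells takes part in the gained regions was not tested.

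Early mesoderm genes had gained regions at 4 of 17 (23.5%) and a lost region at 1 (5.88%). Evx1 was gained at its start (73.1 and 97.3) and 6.88 kb away, and Twist1, a bHLH factor of mesenchyme, at 1.18 kb (173 and 79.1) and 7.51 kb (95.6 and 154). Foxc1 and Mesp1 were the others, and the lost region stood 32.9 kb from Eomes (51.4 and 60.4 in uninduced libraries). Blood genes had 3 of 17 gained (17.6%) and 2 lost (11.8%). Runx1, needed for the emergence of blood from endothelium, had a gained region inside the gene (77.4 and 121), Nfe2 had 2 and Ptprc 1. The erythropoietin receptor gene Epor was lost at its start (70.6 and 81.4 in uninduced libraries), and Gfi1b, a repressor of erythroid cells, 5.92 kb away (84.5 and 90.7).

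Of the signalling pathways, BMP and TGF-beta genes had gained regions at 8 of 27 (29.6%) and lost regions at 3 (11.1%). Among them were the ligand genes Bmp2, Bmp6 and Bmp7, with lower scores of 67.3 to 88.4, and the secreted antagonist genes Nog, Chrd and Grem1. Grem1 was gained at its start (107 and 72.9), in the window shown above, with peaks in both induced and no uninduced EPC library. The receptor gene Acvr1 had 1 gained (113 and 73.7) and 1 lost region (61.2 and 94.4), the inhibitory Smad6 a gained one, and the coreceptor gene Tgfbr3 (151 and 68.7) and Id2 a lost one each. Wnt pathway genes had 6 of 26 gained (23.1%) and 4 lost (15.4%). The 2 Vang-like genes of planar cell polarity differed in direction, Vangl2 with the gained region given above and Vangl1 with a lost region inside the gene at chr3:102167494-102168578 (194 and 134 in uninduced libraries). Ror2, a WNT5A receptor gene, was gained inside the gene (282 and 156), while the repressor gene Tcf7l1 and the ligand gene Wnt11 had 2 lost regions each and the feedback gene Axin2 1. Hippo genes had the lowest gained share of the pathway lists, 1 of 20 (5%), and 3 lost (15%). Tead1, the DNA-binding partner of YAP, had 2 gained regions (168 and 255 at the higher) and 1 lost region inside the gene. Wwtr1, encoding TAZ, had a lost region inside the gene (70.5 and 168), and Lats2 was lost at its start (75.1 and 59.3). Notch genes had 2 of 17 gained (11.8%), Hes1 (70.5 and 102) and Lfng, and 1 lost, Notch1, each with a lower score below 80.

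**Figure D3:**
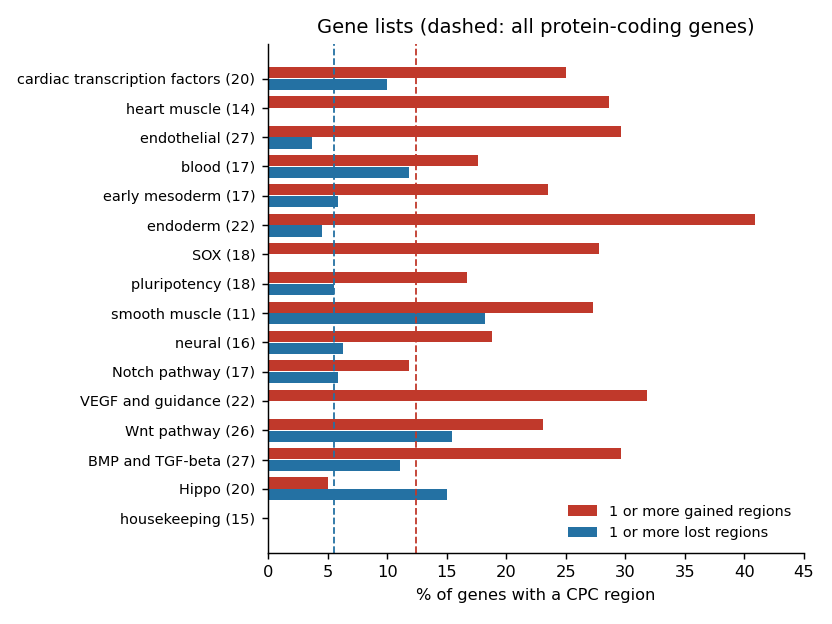
Percent of genes of each list that have 1 or more gained (red) or lost (blue) CPC regions, among its genes with a CPC region (number in brackets). Dashed lines mark all protein-coding genes, 12.4% gained and 5.52% lost.

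In the plot of gene lists, 13 of the 16 lists lie above 12.4% for gained regions, with Notch, Hippo and housekeeping genes below it. Housekeeping genes had 0 of 15 for both, with a median of 1 CPC region per gene. The other 15 lists had 2 to 5 CPC regions per gene at the median, against 2 for all genes, and the shares carry no test. The gene lists were chosen with earlier results of these data known, so the number above 12.4% is no separate evidence. The shares come from the full peak lists, and of all 126 named gained regions 88 were called with lists of equal length. Among pluripotency genes 3 of 18 were gained (16.7%) and 1 lost, Dnmt3b (82.3 and 71.8). The neural list had 3 of 16 gained (18.8%), among them Pax3 (128 and 86.5 at the higher of 2 regions), and smooth muscle genes 3 of 11 (27.3%) gained, among them Acta2 (189 and 199), and 2 lost, among them Actg2 (419 and 183 in uninduced libraries).

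Some genes held several gained regions. Over all genes 271 had 2 or more, 53 had 3 or more and 17 had 4 or more, and 189 genes had both gained and lost regions. Macrod2, a gene of 1998 kb, had 7 gained and 2 lost of its 32 CPC regions. Tiam2, Adgrv1, Ank2, Cntnap2 and Psd3 had 5 gained each, 4 of them inside the gene, and these genes span 193 to 2241 kb. Sox13, of 42.2 kb, and the imprinted G-protein gene Gnas, of 62.4 kb, had 4 each, as had Slc44a5, Auts2, Plcb4, Greb1, Robo1, Kalrn and Sox5, which leaves 2 of the 17 genes unnamed. Kalrn, a guanine nucleotide exchange factor gene, also led the lost regions with 5, ahead of 3 each for Septin9, Negr1, Zfp978, Edil3, Fhad1 and Trabd2b. Corin, which encodes the protease that activates natriuretic peptide, had 2 lost regions outside the gene with a highest lower score of 180.

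EPC libraries, which did not enter the calls, were read at the CPC regions. Of the 2980 gained CPC regions, 29.1% and 21.7% had a peak in uninduced EPC libraries 1 and 2, and 53.1% and 57.5% in induced EPC libraries 1 and 2. Both induced values stood above both uninduced ones. The means were 55.3% ± 3.11 and 25.4% ± 5.2 (SD, n = 2 each), a difference of 29.9 percentage points (two-sided exact permutation p = 0.333, adjusted p = 0.333 over 6 tests, the smallest raw p this design allows being 0.333). At the lost regions the values were 26.4% and 21.2% uninduced and 17.5% and 20.9% induced, a difference of -4.62 points whose groups did not overlap but whose nearest values, 20.9% and 21.2%, were close (exact permutation p = 0.333, adjusted p = 0.333). At constant regions the difference was 2.95 points, with 85% to 90.5% in all 4 libraries, and over all CPC regions it was 6.75 points. The EPC lists differed in length, with 27934 and 23694 peaks uninduced and 28915 and 30732 induced. With EPC lists of equal length the difference was 21 points at gained and -8.62 points at lost regions.

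**Figure D4:**
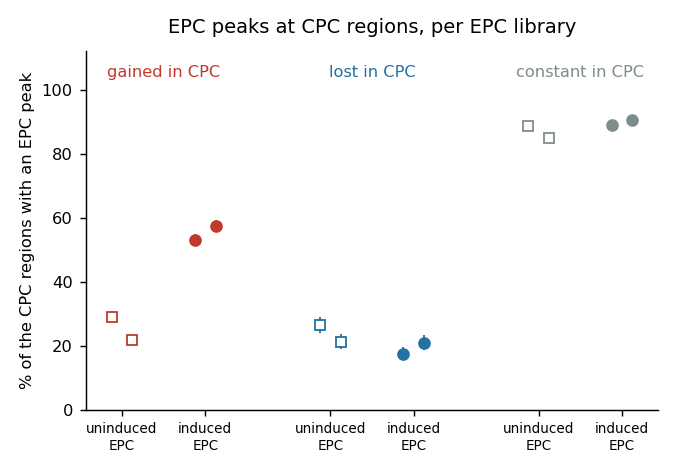
Percent of gained, lost and constant CPC regions with a peak in each EPC library (open squares uninduced, filled circles induced; bars, 95% exact binomial intervals, covering counting error only). At gained regions the induced libraries stand at 53.1% and 57.5%, above 29.1% and 21.7% in the uninduced ones.

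Region by region, 604 gained CPC regions (20.3%) were also gained in EPC and 945 (31.7%) had no EPC peak at all, while 435 (14.6%) had a peak in all 4 EPC libraries. Of the lost CPC regions 33 (2.72%) were also lost in EPC and 756 (62.3%) had no EPC peak. Of the constant CPC regions, 1.6% were gained and 0.534% lost in EPC, 5.6% had no EPC peak and 80.1% had a peak in all 4 EPC libraries. In the plot of EPC libraries, the induced points stand apart from the uninduced ones at gained regions and close to them at lost and constant regions. Shares were higher at higher CPC scores, read in 6 classes of the lower score divided at 60, 80, 100, 150 and 200. From the lowest to the highest class, the share of gained regions with a peak in both induced EPC libraries went from 32.8% to 73.1%, and that with a peak in both uninduced EPC libraries from 13.7% to 23.4%.

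Anti-Myc ChIP of unsorted cells gave a readout of where the tagged protein was found. Of each induced list's peaks, 8.01%, 5.02%, 13.8% and 6.13% fell on a gained CPC region (lists 1 to 4), which were 121, 93, 388 and 65 peaks. Of the uninduced lists' peaks 0.646%, 0.788%, 1.04% and 0.777% did, or 6 to 11 peaks per list, and 0.871% of the input list. Every induced value exceeded every uninduced value, and induced list 3 was the highest. Uninduced lists 2 and 4 shared 585 of 772 peak starts and were counted as 1 library. The means were then 8.25% ± 3.92 (SD, n = 4) and 0.822% ± 0.199 (SD, n = 3), a difference of 7.42 points (two-sided exact permutation p = 0.0571, the smallest that 4 against 3 allow, adjusted p = 0.171 over 6 tests). On lost regions the shares were 0.618% ± 0.233 induced and 1.01% ± 0.0979 uninduced (n = 4 and 3, exact permutation p = 0.0571, adjusted p = 0.171), although each list had 9 to 11 peaks there. On constant regions they were 32.6% ± 7.49 and 39.6% ± 3.26 (exact permutation p = 0.286, n = 4 and 3). The counts there went the other way, with 435 to 782 peaks per induced list and 354 to 387 per uninduced list.

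**Figure D5:**
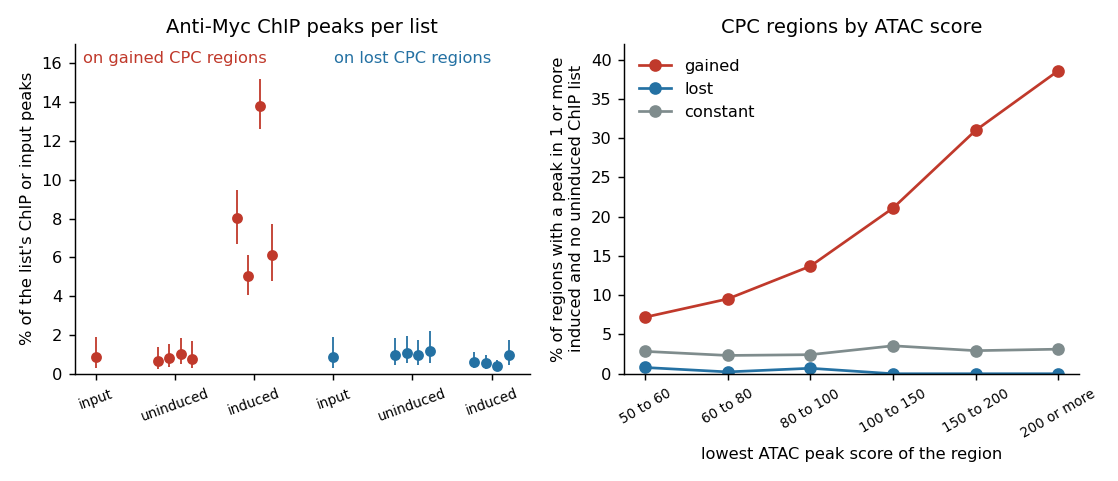
Left, percent of each ChIP or input list's peaks on gained (red) or lost (blue) CPC regions, with 95% exact binomial intervals for counting error. Right, percent of regions with a peak in 1 or more induced and no uninduced ChIP list, by class of lowest ATAC score, which at gained regions runs from 7.2% in the lowest class to 38.6% in the highest.

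Counted by region, 406 gained regions (13.6%) had a peak in 1 or more induced ChIP lists and in no uninduced one, against 6 lost regions (0.495%) and 491 constant regions (2.98%). Most of these were seen in a single list, with 273 regions in 1, 69 in 2, 36 in 3 and 28 in 4 induced lists. Induced list 3 carried many of them, and without it 159 gained (5.34%), 3 lost (0.247%) and 251 constant regions (1.52%) remained. In the right panel of the ChIP plot, the share at gained regions was 7.2%, 9.53%, 13.7%, 21.1%, 31% and 38.6% over the same 6 score classes. At constant regions it stayed between 2.33% and 3.56%, and at lost regions it was at most 0.797%. Of the 406 gained regions with such a peak 4 lay at a gene start (0.985%), against 134 of the 491 constant ones (27.3%).

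Gained regions with a peak in all 4 induced ChIP lists and the highest scores lay inside the receptor phosphatase gene Ptprd (210 and 237), the forkhead gene Foxp1, which acts in heart development (244 and 200, chr6:99207118-99207979), Slc37a3, of the sugar phosphate transporter family (248 and 196), Tiam2 (202 and 148) and Tfec, a bHLH factor related to MITF (289 and 139). For the remaining 5 of the 10 no protein-coding gene was found within 50 kb, the highest at chr14:71046705-71047774 (553 and 267). All 10 had a peak in at least 1 induced EPC library, and 9 in both. Over the 406 gained regions with an induced ChIP peak, 39.2% and 30.5% had a peak in uninduced and 84% and 86.5% in induced EPC libraries 1 and 2. At the 2562 gained regions with no ChIP peak in any list the shares were 27.4% and 20.2%, then 48.2% and 52.9%. Both sets had higher values in the induced EPC libraries, and the difference between the sets was not tested.

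The authors deposited an interval list of their own for peaks seen in induced CPC alone. In that authors' deposited table, 2991 of 3093 intervals (96.7%) overlapped a gained region, each of the 2980 gained regions overlapped an interval, and 0 intervals overlapped an uninduced peak or a lost region. The list describes the same cells by a like rule, so this overlap is no separate evidence for the calls.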

How the data were processed

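Per the labels, ATAC-seq and anti-Myc ChIP-seq were done on day 4 embryoid body cells, and groups and replicate numbers were taken from the sample titles and characteristics. The authors deposited 1 peak list per library. The build was GRCm38 (mm10), and tools named with no role include, per the submitters' processing notes, Trimmomatic, Bowtie2, SAMtools, bedtools and MACS 1.4. Each peak's score was deposited by the authors and is in the MACS format (the log10 of the p-value, multiplied by -10); what input or control each list was called against is not given in the sources used here. Scores depend on read depth, which is unknown, so a missing peak can also mean a shallower library, and scores were used to rank or filter peaks and to describe them.

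From these lists, peaks overlapping by 1 bp were merged and called gained, lost or constant from presence alone. Repeat calls used lists of equal length, scores of 100 or more, a 200 bp overlap, merging over all 8 ATAC lists, leaving out each library and single same-numbered pairs. A region was assigned to overlapping protein-coding genes, or otherwise to the nearest within 50 kb, with the RefSeq gene table of GRCm38.p6 (21887 genes). Promoter windows (21263) and sequences came from RefSeq on the same build, and exons and introns were not used here. Values per library were tested by exact permutation, two-sided with the smaller tail doubled and adjusted by the Benjamini-Hochberg method over 6 tests. Named regions are those at Sox7, Pdgfra and Kdr, those of genes in 16 lists, the 10 gained and 10 lost regions with the highest lower-of-two score among those kept with equal-length lists, genes with the most regions, the 10 leading regions at gene starts in each direction and the 10 gained regions with the most induced ChIP lists. The members and gene lists were chosen with earlier results of these data known. The calling steps were tested on simulated peak lists. The 4 RNA-seq samples were not analysed here, and some named regions are not reported here. Python 3.11.15, pandas 2.3.3, NumPy 2.4.6, SciPy 1.17.1 and matplotlib 3.10.9 were used.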

Additional observations from a re-analysis of the deposited data

Results flagged for a closer look

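A small set of regions had opposite presence calls in the 2 sorted populations, at shares no higher than those of constant CPC regions, and the difference was not tested. Gained in CPC and lost in EPC were 12 regions, 0.403% of the gained CPC regions. Of the constant CPC regions, 0.534% were lost in EPC. Of these, 8 were assigned to genes, with lower CPC scores of 51.4 to 74.7, among them Oxr1, an oxidation resistance gene (69.7 and 155 in induced CPC libraries 1 and 2), and Tpm2, a tropomyosin gene (75.9 and 60.8). Lost in CPC and gained in EPC were 14 regions, 1.15% of the lost CPC regions, against 1.6% of constant CPC regions gained in EPC. The one inside Vangl1 had the highest scores (194 and 134 in uninduced CPC libraries) and remained lost in CPC with lists of equal length, as did those inside the de novo DNA methyltransferase gene Dnmt3b (82.3 and 71.8), the zinc finger gene Zbtb20 (128 and 83) and the urokinase gene Plau (127 and 59). A region inside Ssbp2 (91.9 and 55.6) was lost in CPC, while one 21.6 kb from the same gene was among the leading gained regions. These sets compare with 604 regions gained in both populations and 33 lost in both.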

How the results depend on the processing

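Counts of regions depended on the call. Gained regions numbered 1939 with lists of equal length, 1737 with scores of 100 or more in every list and 737 when presence needed 100 and any peak excluded absence, against 2980; lost regions numbered 600 and 141 under the last 2 settings, against 1213. Leaving out 1 CPC library gave 3749 to 6592 gained and 1931 to 4624 lost regions, since fewer libraries had to agree. No other pairing than the replicate numbers of the titles was available, and whether same-numbered libraries form pairs is unknown. The scores of same-numbered libraries deviated with a correlation of 0.028 over 16464 constant regions, which cannot settle how the libraries were made. With the replicate numbers taken as blocks, pair 1 alone gave 7787 gained and 6221 lost and pair 2 alone 9399 and 4238. The differences in peaks per library (3331) and in EPC shares (29.9 and -4.62 points) had an exact sign-flip p of 0.5, the smallest for 2 pairs. The 200 bp overlap and the 8-list merge gave 3000 and 2946 gained regions. The share of gained regions at gene starts was 6.09% with equal lengths and 10.5% with scores of 100 or more in every list. The latter setting takes in regions with an uninduced peak below 100, and the cause of the higher shares was not tested. The EPC difference at gained regions ranged from 21 to 33.6 points and at lost regions from -8.62 to -2.02. The values of 21 and -8.62 were those with EPC lists of equal length. The ChIP difference was 7.43 points (exact permutation p = 0.0286) with the near-copy lists counted separately and 5.48 to 8.5 under the others. Of 126 named gained regions 88 were called with equal lengths and 62 with scores of 100 or more, and of 44 named lost regions 37 and 13. Both settings only drop peaks, so neither could turn a call to the opposite direction. Read depth is unknown for every list and limits each call that rests on a missing peak.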
